A study of Homo sapiens with 6 samples.

Results

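Interferon-stimulated genes were followed in KMS27 cells after silencing of Che-1, the product of AATF. The list holds 49 genes chosen by name from the known antiviral programme, out of 16444 genes in the authors' gene table. All 49 are in that table, and 40 of them are among the 12075 genes of the authors' transcript table. KMS27 is an established human multiple myeloma line, a cancer of plasma cells, and is labelled as bone marrow. The comparison is between cells that received a control siRNA (siControl, labelled control) and cells that received an siRNA against Che-1 (siChe-1). Each group has 3 libraries, each prepared from 500 ng of total RNA after removal of ribosomal RNA. The sources used here give no siRNA sequence, no time after transfection and no interferon treatment. No label says whether the 3 libraries of a group were grown as separate cultures, and the spread that enters each p-value may therefore be technical.

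Cells that sense foreign RNA or DNA secrete type I interferon, which binds its receptor on the same and on neighbouring cells. The receptor activates the kinases JAK1 and TYK2, and these activate STAT proteins. STAT2 and IRF9 are parts of the factor ISGF3. ISGF3 binds the interferon-stimulated response element (ISRE) in the promoters of its target genes, and IRF1 and IRF7 bind closely related elements. The gamma-activated site (GAS) is an element of genes induced by interferon gamma. The target genes encode sensors of viral RNA, inhibitors of translation, membrane and nucleotide enzymes and chemokines. Many are also transcribed at a low level without added interferon.

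The promoters of 6 members are printed because they show the element more than once (IFIT1, IFIT3, HERC5), as a single copy in a member that rose (GBP1), and as a single copy in both members that fell (CXCL10 and SAMD9). They were chosen after their matches and changes had been seen. Each is the 250 bases before the RefSeq start in GRCh38.p14, read 5′ to 3′ on the strand of the gene. Capitals mark every match to GAAANNGAAA, the ISRE core, on either strand, overlapping matches included.
IFIT1, chr10:89392373-89392622, plus strand: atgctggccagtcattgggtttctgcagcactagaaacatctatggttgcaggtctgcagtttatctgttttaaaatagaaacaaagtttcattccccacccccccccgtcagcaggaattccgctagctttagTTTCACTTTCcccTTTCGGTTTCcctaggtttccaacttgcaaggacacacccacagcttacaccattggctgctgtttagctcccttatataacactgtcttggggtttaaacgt
IFIT3, chr10:89327747-89327996, plus strand: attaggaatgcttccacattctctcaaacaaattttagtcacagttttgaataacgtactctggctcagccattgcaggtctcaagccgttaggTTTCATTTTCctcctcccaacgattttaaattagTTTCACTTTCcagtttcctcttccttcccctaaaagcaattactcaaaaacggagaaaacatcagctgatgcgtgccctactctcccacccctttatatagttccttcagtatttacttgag
HERC5, chr4:88456869-88457118, plus strand: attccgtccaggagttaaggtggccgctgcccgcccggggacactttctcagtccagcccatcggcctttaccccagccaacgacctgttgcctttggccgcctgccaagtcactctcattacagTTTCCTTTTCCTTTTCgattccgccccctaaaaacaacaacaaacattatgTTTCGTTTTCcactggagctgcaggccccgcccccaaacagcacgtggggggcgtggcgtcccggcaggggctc
GBP1, chr1:89065209-89065458, minus strand: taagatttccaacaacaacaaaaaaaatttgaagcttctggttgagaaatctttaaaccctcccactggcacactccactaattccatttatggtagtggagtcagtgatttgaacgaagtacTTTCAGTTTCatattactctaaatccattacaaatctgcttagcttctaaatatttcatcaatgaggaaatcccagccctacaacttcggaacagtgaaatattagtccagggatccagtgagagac
CXCL10, chr4:76023498-76023747, minus strand: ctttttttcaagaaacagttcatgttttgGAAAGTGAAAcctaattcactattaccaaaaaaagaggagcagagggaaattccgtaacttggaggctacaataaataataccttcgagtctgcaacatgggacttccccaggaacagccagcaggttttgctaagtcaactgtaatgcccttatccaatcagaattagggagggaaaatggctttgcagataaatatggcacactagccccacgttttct
SAMD9, chr7:93117980-93118229, minus strand: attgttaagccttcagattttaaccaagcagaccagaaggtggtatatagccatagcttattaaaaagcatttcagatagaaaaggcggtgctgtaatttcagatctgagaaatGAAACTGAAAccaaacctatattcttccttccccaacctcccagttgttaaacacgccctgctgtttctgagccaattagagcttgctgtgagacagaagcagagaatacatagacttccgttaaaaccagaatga

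Of the 49 members, 39 matched a RefSeq promoter. IFIT2, IFITM2, MX2, OAS2, OASL, DHX58, GBP2, GBP5, USP18 and TRIM22 were not matched. The ISRE core was present in 22 of the 39 (56.4%), and 13 held at least 2 matches. It was present in 3.02% of all 35116 promoters of the same length. The GAS core, TTCNNNGAA on both strands, was present in 8 of 39 (20.5%) against 6.57% of all promoters. An NF-kB motif, GGGANTTTCC on both strands, was present in 4 of 39 (10.3%) against 0.527%. It was present in IFIH1, OAS3, DDX58 and GBP4. A match is a run of letters and was not shown to be bound in these cells.

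The silencing can be read on AATF. Its FPKM, the fragments per kilobase of transcript and per library size, was 97.0, 88.8 and 119 in siControl against 14.2, 14.2 and 16.9 in siChe-1. Relative to other genes, the log2 of its FPKM + 1 fell by 2.63 ± 0.12 (SE, limma adjusted p 0.000288). Changes of the members were measured in the same way, from FPKM of all 6 libraries with limma, and from whole reads of 5 libraries with edgeR's quasi-likelihood test. These reads were recovered from the authors' group means, and siChe-1 replicate 3 is not among them. The 5 libraries held 19185489 to 21803995 recovered reads. In the spike-in count, siChe-1 replicate 3 stands apart from its group, with 379232 spike-in reads against 835414 and 1041244 in siChe-1 replicates 1 and 2 and 351573 to 519573 in siControl. A gene was called when its adjusted p was under 0.05. Each fold change is siChe-1 over siControl and, unless the spike-ins are named, is relative to the other genes of the library.

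Most of the measured members were higher in the siChe-1 libraries relative to other genes. On reads, 27 of 42 tested members rose, 2 fell and 13 were not called, where 13.5% of all 12469 tested genes were called higher and 15.3% lower. In bulk RNA, more cells with a gene on and more RNA per cell cannot be told apart. The median log2 fold change of the 42 was 0.75. Over all tested genes it was -0.01, with quartiles of -0.27 and 0.27. XAF1 and TRIM22 reached the minimum of 10 normalized reads only through siChe-1, and USP18 only through siControl. With both groups at the minimum, 25 of 39 rose, 2 fell and 12 were not called, and the median was 0.72. On FPKM, which includes siChe-1 replicate 3, 24 of 35 tested members rose, 2 fell and 9 were not called, where 13.4% of 10778 genes were called higher and 13.8% lower. LGALS3BP and DHX58 reached the minimum mean of 1 FPKM only through siChe-1, and with both groups at the minimum 23 of 33 rose, 2 fell and 8 were not called. The median difference of the 35 was 0.46 on the log2(FPKM + 1) scale, against 0.0013 over all genes. In 25 of the 35, every siChe-1 library lay above every siControl library, which held for 19.1% of all tested genes. With both groups at the minimum, it held for 23 of 33 members. Of the 35 members tested on both scales, 21 were called higher on both, 2 lower on both and 9 on neither. The reads and the FPKM come from the same libraries and are no independent repeat.

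**Figure D1:**
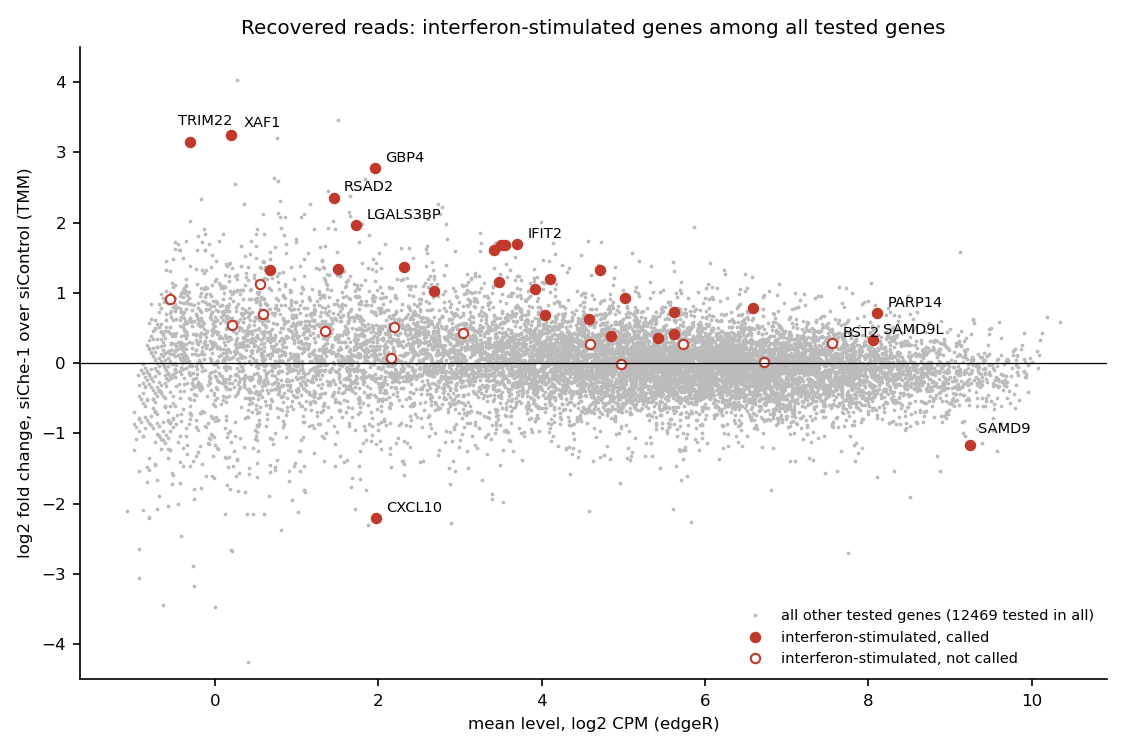
Mean level (log2 CPM, recovered reads scaled to library size, x axis) against the log2 fold change between siChe-1 (2 libraries) and siControl (3 libraries) on recovered reads (y axis). Grey points are all other tested genes, filled red points are members called and open red points members not called. The members that rose most have low levels, and SAMD9, at the high end, lies below 0. XAF1 and TRIM22, at the top, reached the minimum of 10 normalized reads only through siChe-1.

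Level and change can be read together. Of the 34 members with a mean of 10 to 1000 normalized reads, 23 rose and 1 fell, where 15.5% of the 7133 genes in that range were called higher and 9.86% lower. These 34 include XAF1 and TRIM22, which were called higher and reached the minimum only through siChe-1. USP18, also among them, reached it only through siControl. Of the 8 members above 1000, 4 rose and 1 fell, where 10.8% of the 5336 genes in that range were called higher and 22.6% lower. Per transcript length, the most abundant members in siControl were BST2 at 152 ± 20.4 FPKM (SD, n = 3), SAMD9 at 83.1 ± 16.3, ISG20 at 27.8 ± 3.63, SAMD9L at 24.99 ± 2.44 and UBE2L6 at 24.9 ± 1.01. The siControl levels of ISG20, SAMD9L and UBE2L6 did not differ from each other beyond their spread. At the low end, TRIM22 stood under 0.025 FPKM in each siControl library.

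**Figure D2:**
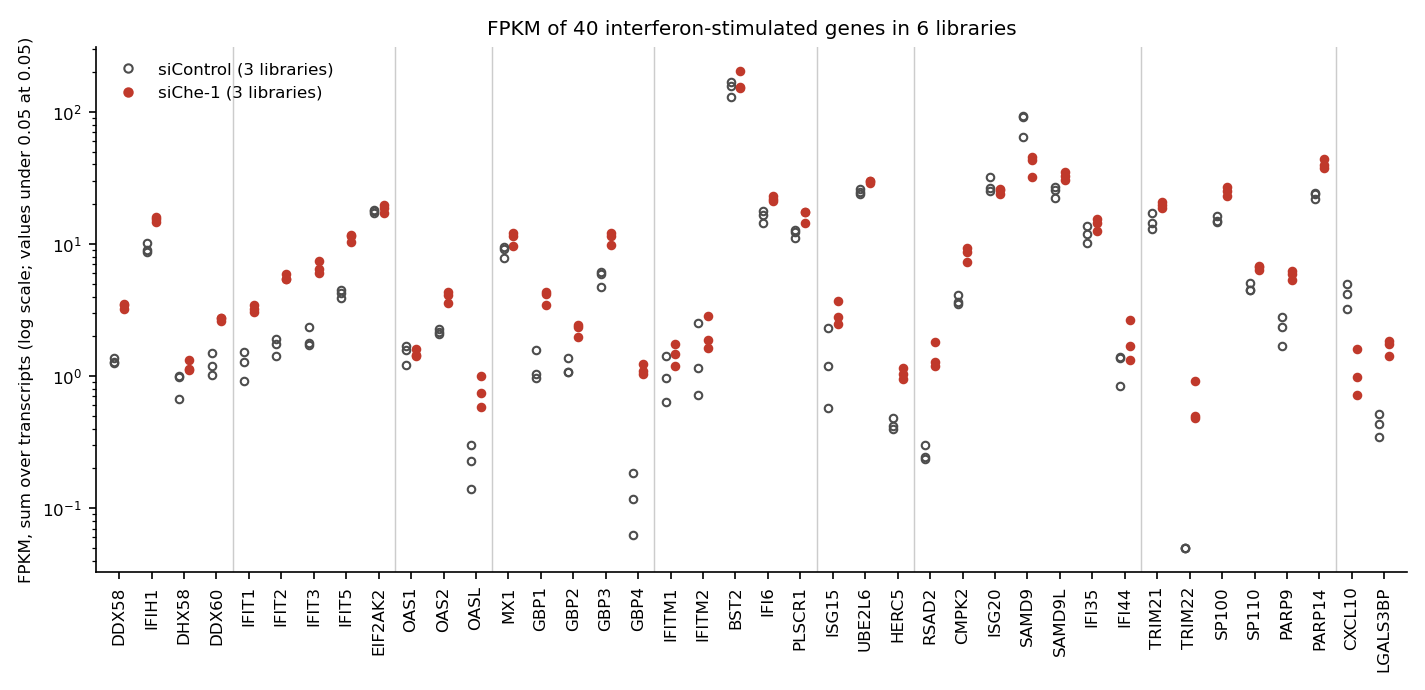
FPKM of the 40 members in the transcript table (log axis), with 3 siControl libraries as open grey points and 3 siChe-1 libraries as filled red points. Vertical lines separate the roles. The groups are apart and siChe-1 is higher for IFIT1, IFIT2, IFIT3, IFIT5 and all GBP genes shown, while siChe-1 is lower for SAMD9 and CXCL10.

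Of the 4 RNA sensors, 3 rose. DDX58 encodes RIG-I, the helicase that recognises viral RNA ends (chromosome 9, 32455300 to 32526322, minus strand, hg19). It had 110, 117 and 125 reads in siControl replicates 1 to 3 and 299 and 427 in siChe-1 replicates 1 and 2, a log2 fold change of 1.61 ± 0.17 (SE, adjusted p 5.04e-05). Its FPKM of 1.27, 1.25 and 1.37 in siControl against 3.24, 3.51 and 3.44 in siChe-1 kept the groups apart in all 6 libraries. IFIH1, or MDA5, which binds long double-stranded RNA, was the most abundant sensor. Its FPKM was 8.70, 8.94 and 10.2 in siControl against 15.9, 14.6 and 15.5 in siChe-1, which on the log2(FPKM + 1) scale is a rise of 0.70 ± 0.09 (limma adjusted p 0.00212). DDX60, a helicase linked to RIG-I signalling, had 167, 149 and 131 reads against 281 and 394, a log2 fold change of 1.15 ± 0.18. DHX58, or LGP2, which regulates the other sensors, was not called at 0.51 ± 0.21 (adjusted p 0.0873), with 69 to 84 reads in siControl against 119 and 103 in siChe-1.

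The 4 IFIT genes, whose products bind foreign RNA and hold back its translation, all rose. IFIT1 had 72, 47 and 61 reads in siControl against 136 and 180 in siChe-1, a log2 fold change of 1.37 ± 0.23 (adjusted p 0.000984). IFIT2 had 148, 122 and 140 against 401 and 500, or 1.70 ± 0.16 (adjusted p 2.20e-05). IFIT3, a partner of IFIT1, had 143, 118 and 111 against 362 and 451, or 1.69 ± 0.17 (adjusted p 4.29e-05). IFIT3 stood at 2.37, 1.77 and 1.71 FPKM in siControl against 6.06, 6.43 and 7.45 in siChe-1, so that the lowest siChe-1 library was more than 2-fold above the highest control. IFIT5 had 328, 292 and 368 reads against 792 and 870, or 1.32 ± 0.13 (adjusted p 2.71e-05). The 4 genes lie on the plus strand of chromosome 10 in hg19, in the order IFIT2, IFIT3, IFIT1 and IFIT5, from 91061706 to 91180759, with gaps of 10.6 to 51.6 kb. EIF2AK2, or PKR, the kinase that stops translation on double-stranded RNA, was the most abundant of this role and was not called. Its reads were 2131, 2130 and 2109 in siControl against 1942 and 2398 in siChe-1, a log2 fold change of 0.01 ± 0.11, and the groups overlapped.

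Within the OAS family, enzymes that make the oligoadenylate messenger of RNase L, OAS2 and OASL rose. OAS2 had 250, 250 and 298 reads in siControl against 405 and 456 in siChe-1, a log2 fold change of 0.68 ± 0.13 (adjusted p 0.00288). On FPKM, most of the difference lay in 1 of its 2 transcripts, at 0.805, 0.605 and 0.939 FPKM in siControl against 2.48, 2.08 and 2.22 in siChe-1. The other OAS2 transcript stood at 1.28, 1.67 and 1.22 against 1.61, 2.21 and 1.34. Taken alone in place of the sum, this other transcript, which has the higher mean, was not called (0.20, adjusted p 0.404). OASL, which lacks the enzyme activity and binds RIG-I, had 22, 20 and 14 reads against 46 and 49, or 1.32 ± 0.31 (adjusted p 0.00737). OASL was no longer called without siChe-1 replicate 2, at 1.33 and an adjusted p of 0.05003. OAS1, which is active as a synthetase, was not called at 0.07 ± 0.23, with 66, 89 and 104 reads against 95 and 87. OAS3 was below the minimum, with 2, 2 and 8 reads against 20 and 25.

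All 5 tested MX and GBP genes rose. MX1, which blocks nucleocapsids of RNA viruses, was the most abundant and moved least, with 712, 798 and 830 reads in siControl against 938 and 1089 in siChe-1 (0.36 ± 0.11, adjusted p 0.0290). MX1 lost its call on reads in 4 of 5 settings with a library left out (adjusted p 0.0980 without siControl replicate 1, 0.0793 without siControl replicate 3, 0.0549 and 0.141 without siChe-1 replicates 1 and 2). On FPKM, MX1 lost its call without siControl value 1 (0.111), 2 (0.0534) or 3 (0.0777) of the list and without siChe-1 value 2 (0.0984) or 3 (0.117). The guanylate-binding proteins attack the membranes of intracellular pathogens and answer strongly to interferon gamma. GBP4 had 32, 23 and 13 reads against 156 and 160, or 2.77 ± 0.30 (6.83-fold, adjusted p 5.91e-05). GBP1 had 152, 101 and 106 against 407 and 370, or 1.68 ± 0.20 (adjusted p 0.000109). GBP2 had 99, 88 and 81 against 170 and 200, or 1.03 ± 0.19 (adjusted p 0.00191). These 3 and GBP3, at 499, 424 and 512 against 902 and 946 (0.93 ± 0.12, adjusted p 0.000211), lie on the minus strand of chromosome 1, between 89472360 and 89664633 in hg19. GBP2 shares 621 exon bases on the same strand with GBP7, which has no recovered reads of its own. MX2 and GBP5 were below the minimum.

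Of the membrane and organelle proteins, PLSCR1 rose on both scales, IFI6 rose on FPKM alone, and 3 of the 5 tested were not called on either. PLSCR1, a lipid scramblase, had 463, 489 and 596 reads in siControl against 644 and 720 in siChe-1, a log2 fold change of 0.39 ± 0.12 (adjusted p 0.0341). That call was lost without siControl replicate 1 (adjusted p 0.110) or 2 (0.0520) and without siChe-1 replicate 1 (0.0928) or 2 (0.140), and on FPKM it was kept in every setting tried. BST2, or tetherin, which holds budding virus at the cell surface, was the most abundant member per transcript length. Its reads were 2952, 3991 and 3522 against 3855 and 4759, its log2 fold change was 0.28 ± 0.13 (adjusted p 0.108), and the groups overlapped. IFI6, a protein of the endoplasmic reticulum and mitochondria, had a summed FPKM of 16.4, 14.5 and 17.6 in siControl against 21.3, 23.0 and 21.8 in siChe-1, a rise of 0.46 ± 0.09 (limma adjusted p 0.00943). On reads IFI6 was not called (0.43 ± 0.17, adjusted p 0.0689). IFITM1 and IFITM2 restrict the entry of viruses and had 11 to 39 reads in siControl and 23 to 42 in siChe-1. They share 351 exon bases in GENCODE v29, so that reads could be split between them in a way the sources do not state. IFITM3 and IFI27 were below the minimum.

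In the ISG15 pathway, which attaches a ubiquitin-like protein to other proteins, only HERC5 was called on reads. HERC5, the main ligase of the pathway, had 35, 36 and 31 reads in siControl against 83 and 92 in siChe-1, a log2 fold change of 1.34 ± 0.24 (adjusted p 0.00151). ISG15, the modifier itself, stood at 0.572, 2.32 and 1.18 FPKM against 2.48, 3.67 and 2.79, a rise of 0.83 ± 0.26 that passed narrowly (limma adjusted p 0.0473). On reads ISG15 had 10, 32 and 14 against 37 and 46 and did not pass (1.13 ± 0.41, adjusted p 0.0550). Its FPKM call was lost in 9 of 11 other settings, in 5 of them on leaving out 1 library: 0.0979 without siControl value 1 and 0.134 without siControl value 3, and 0.0808, 0.104 and 0.106 without each siChe-1 value. UBE2L6, the conjugating enzyme, was the most abundant of the role at 24.1, 24.5 and 26.0 FPKM against 28.8, 30.1 and 29.8 (0.27 ± 0.07, limma adjusted p 0.0275). Leaving out any 1 library moved its adjusted p to between 0.0646 and 0.0864, and on reads it was not called. USP18, which removes ISG15, had 11, 2 and 13 reads against 18 and 15, and HERC6 was below the minimum.

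**Figure D3:**
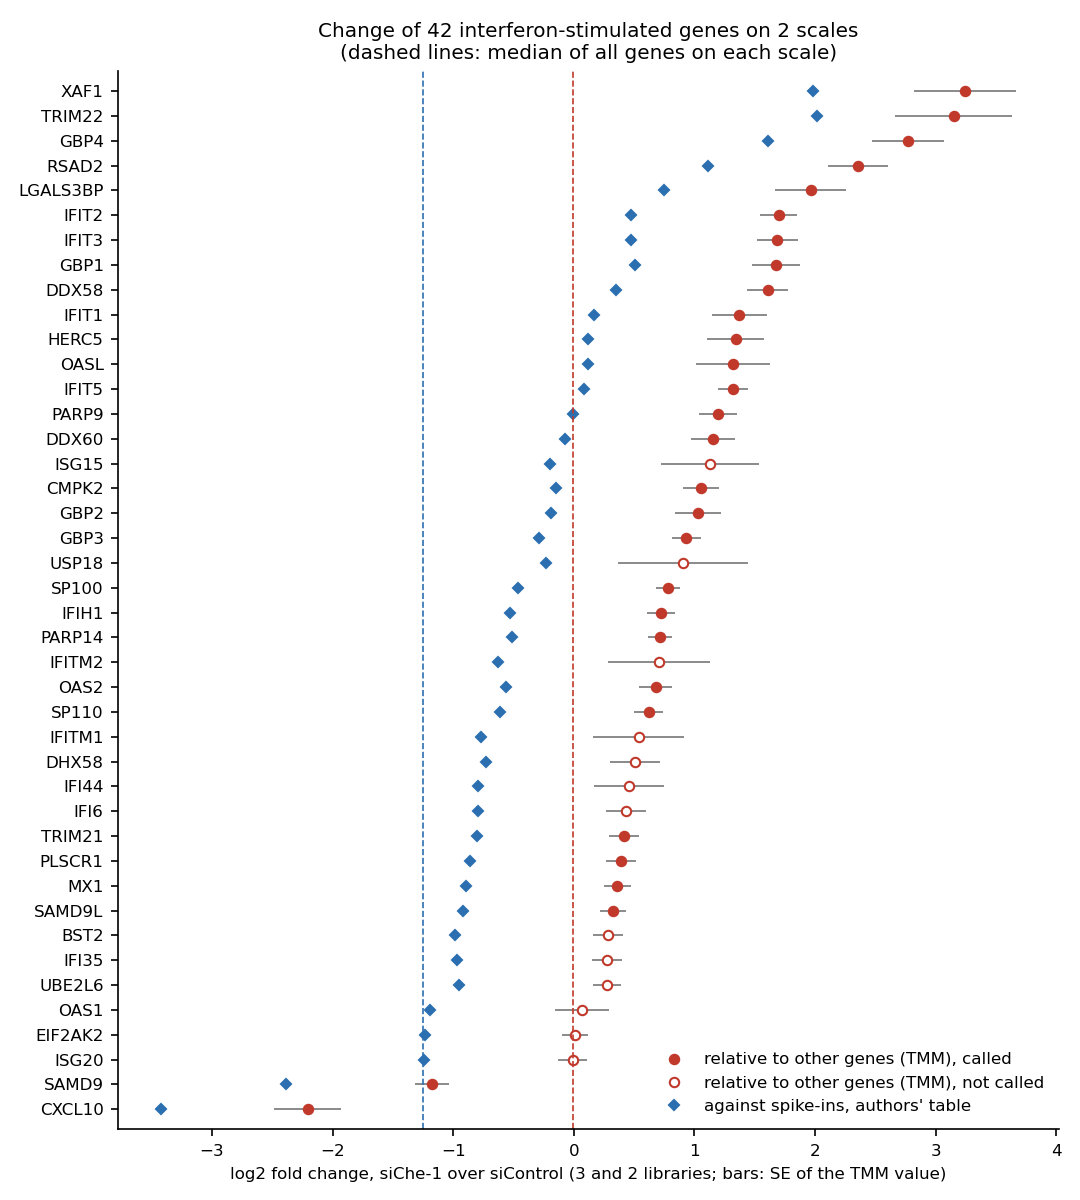
Log2 fold change of the 42 tested members, siChe-1 (2 libraries) over siControl (3 libraries). Red points with SE bars are relative to other genes, filled where called, and blue diamonds are the authors' values against the spike-ins. The dashed lines mark the median of all genes on each scale (-0.01 and -1.25), and only CXCL10 and SAMD9 stand well below the line of their scale.

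Among other antiviral effectors, RSAD2, CMPK2 and SAMD9L rose and SAMD9 fell. RSAD2, or viperin, makes a nucleotide that ends viral RNA chains. It had 18, 20 and 22 reads in siControl against 99 and 109 in siChe-1, a log2 fold change of 2.35 ± 0.25 (5.11-fold, adjusted p 5.04e-05). CMPK2, a nucleotide kinase whose gene lies on the opposite strand of chromosome 2, had 221, 201 and 213 reads against 476 and 414 (1.06 ± 0.15). The deposited intervals of RSAD2 and CMPK2 are 11029 bases apart, and in GENCODE v29 the genes share 14 exon bases. ISG20, an RNA exonuclease, was not called at -0.01 ± 0.12, nor were IFI35 and IFI44. IFI44L was below the minimum.

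SAMD9 and SAMD9L are related genes 12.0 kb apart on the minus strand of chromosome 7, from 92728826 to 92777680 in hg19. Their products restrict poxviruses and translation. SAMD9 had 16854, 12542 and 17931 reads in siControl against 7067 and 7060 in siChe-1, a log2 fold change of -1.17 ± 0.14 (2.26-fold lower, adjusted p 0.000118). Its FPKM of 92.1, 64.2 and 93.0 in siControl against 43.2, 32.1 and 45.2 in siChe-1 left no overlap (limma adjusted p 0.00810). SAMD9L went the other way, at 25.7, 22.3 and 27.0 FPKM against 32.7, 30.5 and 35.4 (0.42 ± 0.10, limma adjusted p 0.0197). On reads SAMD9L rose by 0.33 ± 0.11 (adjusted p 0.0387). SAMD9L lost its call on reads when any 1 library was left out, with adjusted p of 0.0597 to 0.230, and on FPKM without siChe-1 value 1 (0.0662) or 3 (0.0811) of the list. The ratio of SAMD9 to SAMD9L within a library, which no scaling changes, was 3.58, 2.89 and 3.44 on FPKM in siControl against 1.32, 1.05 and 1.28 in siChe-1. This ratio was looked at after both values had been seen and was not tested.

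All 6 TRIM, PARP and nuclear body genes rose on reads, but TRIM22 reached the minimum of 10 normalized reads only through siChe-1. TRIM22, a ubiquitin ligase that acts on viral transcription, had 5, 4 and 1 reads in siControl against 28 and 34 in siChe-1, a log2 fold change of 3.15 ± 0.48 (adjusted p 0.000608). TRIM21, a cytosolic antibody receptor, had 870, 780 and 982 against 1239 and 1118 (0.41 ± 0.12, adjusted p 0.0252). Without siChe-1 replicate 1, TRIM21 was not called on reads (0.28, adjusted p 0.201). On FPKM, TRIM21 lost its call without siControl value 1 (adjusted p 0.0641) or 2 (0.0513) of the list and without siChe-1 value 1 (0.0747) or 3 (0.0866). SP100 and SP110 are nuclear body proteins. SP100 had 1431, 1493 and 1608 reads against 2399 and 2863 (0.78 ± 0.10, adjusted p 0.000197), and SP110 had 384, 386 and 416 against 596 and 634 (0.62 ± 0.12). SP110 shares 170 exon bases on the opposite strand with SP140, at 557, 498 and 698 reads against 1563 and 1640. The sources used here do not say if reads were counted by strand. PARP9 and PARP14 are ADP-ribosyltransferases of the macrodomain type. PARP14, the most abundant of the role, had 4429, 4142 and 4727 reads against 6996 and 7751 (0.72 ± 0.10, adjusted p 0.000295), and PARP9 had 255, 181 and 243 against 516 and 532 (1.19 ± 0.16). PARP9 shares 217 exon bases on the opposite strand with DTX3L, at 1371, 1241 and 1347 reads against 2243 and 2338.

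Of the 3 secreted or cell death genes, XAF1 and LGALS3BP rose and CXCL10 fell. XAF1, an antagonist of the caspase inhibitor XIAP, had 4, 4 and 6 reads in siControl against 31 and 61 in siChe-1, a log2 fold change of 3.24 ± 0.43 (adjusted p 0.000212). XAF1 shares 2535 exon bases (38.3%) on the opposite strand with PRAL, which has no recovered reads of its own. LGALS3BP, a secreted glycoprotein, had 25, 29 and 36 reads against 148 and 87 (1.96 ± 0.29, adjusted p 0.000468). CXCL10 encodes a chemokine that draws T cells and is a classical target of interferon gamma. It had 115, 86 and 137 reads in siControl against 26 and 23 in siChe-1, a log2 fold change of -2.21 ± 0.28 (4.62-fold lower, adjusted p 0.000176). On FPKM the groups did not overlap either, with 4.20, 3.24 and 4.99 in siControl against 0.980, 0.712 and 1.61 in siChe-1 (limma adjusted p 0.00339). Within a library, the FPKM ratio of CXCL10 to GBP1 was 2.67, 3.32 and 4.85 in siControl against 0.227, 0.207 and 0.388 in siChe-1. That ratio too was looked at after the values had been seen and was not tested.

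The 2 members that fell both hold an ISRE match, beginning 221 bases before the start in CXCL10 and 136 bases in SAMD9, as printed above. Of the 18 tested members with an ISRE match, 10 rose and 2 fell, with a median log2 fold change of 0.72 on reads. Of the 16 tested members with a matched promoter and no ISRE match, 12 rose and none fell, with a median of 0.70. XAF1, 1 of the 12, reached the minimum only through siChe-1. Of these 16, 0 were lower at an unadjusted p under 0.05 with edgeR, and 0 with DESeq2. Over all tested genes 13.5% were called higher and 15.3% lower. The ISRE core was present in 22 of the 39 matched members. Only 2 members fell, and a link between the match and the direction was not tested. XAF1, GBP4 and RSAD2, which had the largest rises among members with a promoter, have no ISRE match in this window.

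**Figure D4:**
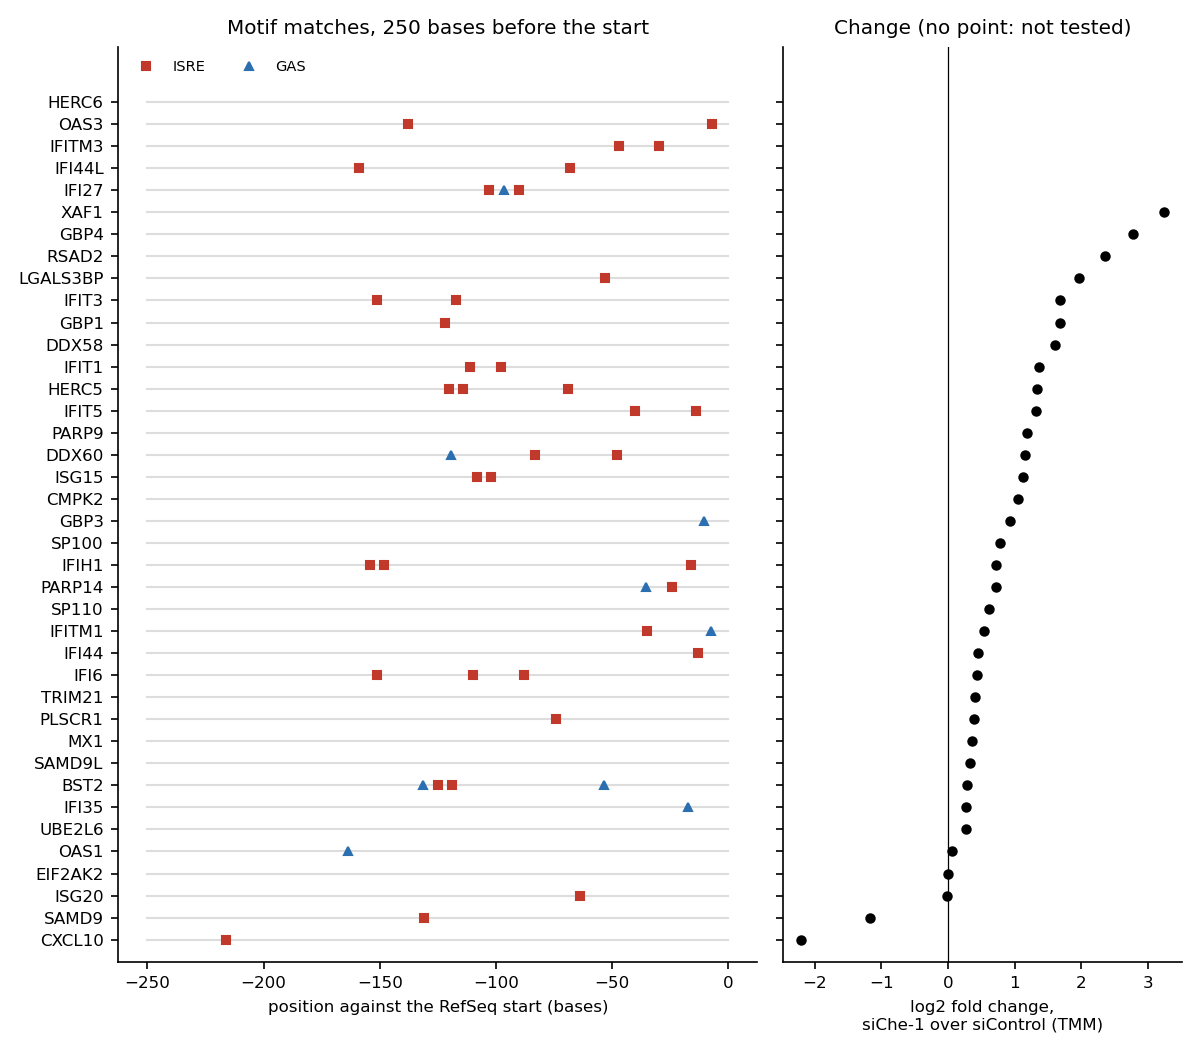
Left, matches to the ISRE core (red squares) and the GAS core (blue triangles) in the 250 bases before the RefSeq start of 39 members, in bases from the start. Right, log2 fold change of the same members on recovered reads, ordered by size, with no point for members not tested. Members with and without matches are spread over the range of changes, and CXCL10 and SAMD9 at the bottom each hold 1 ISRE match.

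Other genes of the pathway were read from a separate list of 57, of which 42 were tested on reads. Of these, 12 rose, 3 fell and 27 were not called, with a median log2 fold change of 0.09. On FPKM 10 of 42 rose and 2 fell. The share called higher or lower can be read against the 13.5% and 15.3% of all tested genes given above.

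No interferon gene reached the minimum for a test. IFNB1, the gene for interferon beta, had 0, 2 and 0 reads in siControl against 7 and 15 in siChe-1, and its FPKM was 0, 0.103 and 0 against 0.399, 0.665 and 0.173. Every siChe-1 library lies above every siControl library, at levels below the minimum for a test. Such a separation also held for 19.1% of all genes tested on FPKM, and its share among genes as low as IFNB1 was not computed. Against the spike-ins, the authors gave IFNB1 a log2 value of 2.54 with an adjusted p of 0.213, which is above the threshold. Relative to other genes IFNB1 was below the minimum and was not tested, so a rise of IFNB1 was not shown. IFNE, IFNW1 and IL28A had at most 5 reads in any library, and the other ligands of the list are not in the authors' gene table. Of the 6 receptor genes, IL10RB, a chain of the interferon lambda receptor, rose (0.44 ± 0.13, adjusted p 0.0254) and IFNGR2, a chain of the interferon gamma receptor, fell by 0.52 ± 0.12 (adjusted p 0.00556). IL10RB lost its call without siControl replicate 1 (0.0928) or 3 (0.0531) and without siChe-1 replicate 1 (0.0628) or 2 (0.145). IFNAR1, the most abundant, was at 2483, 3289 and 2725 reads against 2232 and 3395 and was not called.

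Among kinases and STATs, JAK1 rose by 0.47 ± 0.10, TYK2 by 0.44 ± 0.12 and IRF9 by 1.05 ± 0.15 on reads. IRF9, the DNA-binding part of ISGF3, had 204, 258 and 217 reads in siControl against 485 and 464 in siChe-1 (adjusted p 0.00034). TYK2 was not called without siControl replicate 3 (adjusted p 0.0684) or siChe-1 replicate 1 (0.149). JAK2 was called on FPKM alone (0.34 ± 0.10, limma adjusted p 0.0409), and not without siControl value 1 (0.0746), 2 (0.0933) or 3 (0.101) of the list or siChe-1 value 1 (0.124) or 3 (0.135). STAT2 (0.17 ± 0.11, adjusted p 0.288) and STAT3, the most abundant of the group (0.25 ± 0.11, adjusted p 0.101), were not called.

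Of the interferon regulatory factors and related activators, IRF1, IRF5, IRF7 and CIITA rose. IRF1, itself induced by interferon, had 1035, 940 and 945 reads in siControl against 2289 and 2478 in siChe-1, a log2 fold change of 1.27 ± 0.11 (adjusted p 1.77e-05). CIITA, the master regulator of MHC class II genes, had 50, 57 and 59 against 285 and 234, or 2.22 ± 0.19 (adjusted p 1.83e-05). IRF7, which amplifies the type I response, rose by 0.80 ± 0.18 and IRF5 by 0.66 ± 0.13, and without siChe-1 replicate 2 IRF7 was at an adjusted p of 0.05034. On FPKM the groups overlapped for IRF7, which was not called (limma adjusted p 0.0790). IRF4, the plasma cell factor and the most abundant of the group at 228 ± 14.5 FPKM in siControl against 215 ± 14.9 (SD, n = 3) in siChe-1, was not called on FPKM.

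None of the 7 tested negative regulators was called on reads by edgeR at the adjusted threshold. PTPN11, the most abundant in siControl, stood at -0.15 ± 0.10 (adjusted p 0.268). IRF2BP2 stood at 0.31 ± 0.15 and PTPN2, a phosphatase of JAK1, at -0.29 ± 0.10 (adjusted p 0.0523). PTPN2 was the 1 of the 7 with an unadjusted p under 0.05 in edgeR, and DESeq2 called it (adjusted p 0.0481). Upstream sensing genes moved in both directions. The DNA sensors IFI16 (1.15 ± 0.14) and AIM2 (1.06 ± 0.17), the adaptor TMEM173, or STING (0.62 ± 0.16), and ZBP1 (0.30 ± 0.10, adjusted p 0.0454) rose. TLR7, an endosomal RNA receptor, fell by 1.40 ± 0.19, with 184, 183 and 232 reads in siControl against 68 and 85 in siChe-1. MAVS, the adaptor of RIG-I, fell by 0.31 ± 0.11 (adjusted p 0.0461). MAVS lost its call with median of ratios (0.0501) or upper quartile scaling (0.109), with no minimum (0.0515), without siControl replicate 1 (0.167) or 3 (0.134) and without siChe-1 replicate 1 (0.0563) or 2 (0.283), and was not called on FPKM (limma adjusted p 0.112). ZBP1 lost its call with no minimum (0.0529), without siControl replicate 1 (0.144) or 3 (0.135) and without siChe-1 replicate 1 (0.112) or 2 (0.137), and was not called on FPKM (limma adjusted p 0.0931). TMEM173 lost its call without siControl replicate 3 (0.0511) and without siChe-1 replicate 1 (0.0628) or 2 (0.0747). ADAR, the most abundant, was at 136 ± 10.4 FPKM in siControl against 137 ± 7.01 (SD, n = 3) in siChe-1 and was not called.

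**Figure D5:**
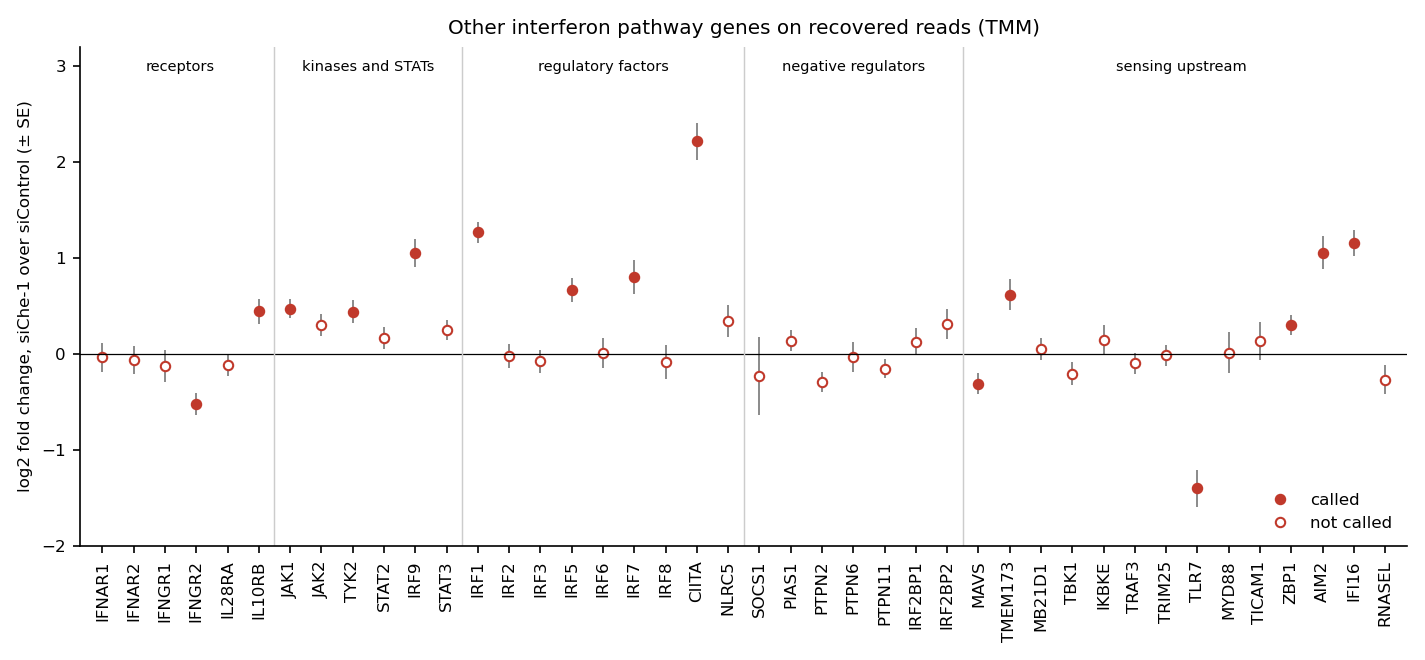
Log2 fold change with SE on recovered reads for the 42 tested genes of the interferon pathway that are no members, by group, siChe-1 (2 libraries) over siControl (3 libraries). Filled points were called. IRF1, IRF9, CIITA, AIM2 and IFI16 lie above 1, TLR7 lies below -1, and STAT2 is an open point near 0.

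Against the spike-ins nearly all genes had lower values in siChe-1 replicates 1 and 2 than in siControl, and so did 29 of 42 members. Spike-ins are external RNAs whose reads set the scale of each library. The comparison leaves out siChe-1 replicate 3, whose 379232 spike-in reads lie within the siControl range of 351573 to 519573. In the authors' deposited table, 2 of 42 members were called higher and 5 lower, where 0.0635% of 12591 genes were called higher and 63.5% lower. The median log2 fold change of the members in the authors' deposited table was -0.49, against -1.25 over all genes. A positive value was given for 13 of the 42 members in the authors' deposited table, against 1.56% of all genes. GBP4 (1.61, adjusted p 0.00879) and XAF1 (1.99, adjusted p 0.0317) were the members called higher in the authors' deposited table. XAF1, at a mean of 6.65 in siControl and 26.4 in siChe-1, reached the minimum of 10 only through siChe-1. So did TRIM22, at 4.51 and 18.3, and both are among the 13 members with a positive value. GBP4 had both groups above the minimum. CXCL10 (-3.42), SAMD9 (-2.39), EIF2AK2 (-1.23), ISG20 (-1.24) and UBE2L6 (-0.95) were called lower in the authors' deposited table. IFIT1 (0.16), IFIT2 (0.47), IFIT3 (0.47) and DDX58 (0.35) were not called in the authors' deposited table, although they rose relative to other genes. GBP4 had 35.6, 37.2 and 19.6 spike-in-normalized reads in siControl against 104 and 83.9 in siChe-1, and IFIT3 had 159, 190.7 and 167 against 242 and 236.

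Of 44 pathway genes in the authors' deposited table at the same minimum, 1 was called higher, CIITA (0.99, adjusted p 0.0430), and 29 lower, with a median of -1.18. ZBP1, which rose relative to other genes, was called lower in the authors' deposited table (-0.95, adjusted p 0.0490). With edgeR on the same spike-in factors, IL10RB, JAK1, JAK2, TYK2 and ZBP1 were called lower, all of which rose relative to other genes on reads or FPKM.

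Each library has 1 spike-in factor for all its genes, so that calls on this scale share its error, and siChe-1 replicate 3 is not in the authors' deposited table. With edgeR on the same spike-in factors, 16 members were called, 4 higher and 12 lower. The edgeR counts over all genes are not given here, so the 12 cannot be read as a fall particular to the members. In the authors' deposited table, 0.0635% of all genes were called higher and 63.5% lower. UBE2L6, MX1, TRIM21, SAMD9L and PLSCR1, which rose relative to other genes, were among the 12 members called lower by edgeR. With edgeR, leaving out siChe-1 replicate 2 gave 4 (2 higher, 2 lower) and leaving out siControl replicate 1 gave 26 (4 higher, 22 lower). Without siChe-1 replicate 2, the calls of XAF1 (adjusted p 0.0631), EIF2AK2 (0.0666), ISG20 (0.111) and UBE2L6 (0.234) were lost, and that of UBE2L6 also without siControl replicate 2 (0.0601) or 3 (0.0843).

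Markers of plasma cells were present in both groups, with all 9 in the FPKM table and a summed level of 1475 to 1634 CPM (recovered reads scaled to library size) in siControl and 1466 to 1472 in siChe-1 over the 7 with recovered reads. Among them CD38 rose (0.70 ± 0.13) and XBP1 (-0.53 ± 0.12) and MZB1 (-0.46 ± 0.15) fell. Monocyte and macrophage markers summed to 3.13 to 4.30 CPM in siControl and 5.44 to 7.88 in siChe-1. That difference was carried by CD68, a lysosomal protein, at 58, 72 and 55 reads against 137 and 101. CSF1R and CD163 had at most 1 read in any library and CD14 at most 7. T cell markers summed to 0.853 to 0.979 against 1.09 to 2.08. CD3G was at 17, 19 and 15 reads against 23 and 15, and CD3E at 2, 0 and 3 against 18 and 8. NK cell markers summed to 0.950 to 1.23 against 0.615 to 1.17. GNLY was at 13, 16 and 23 reads against 10 and 9, and NCAM1 at 7, 3 and 3 against 10 and 1. KLRD1 was at 0 in siControl against 3 and 3, and NKG7 at 0 in all 5 libraries. Of the 5 plasmacytoid dendritic cell markers 1, TCF4, is in the gene table, at 248 to 310 CPM against 352 to 371. Erythroid and stromal markers stayed under 0.5 CPM. The part of these markers in the changes of the members was not tested.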

How the data were processed

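Total RNA libraries of KMS27 cells (3 siControl, 3 siChe-1) were grouped by sample title. TopHat, Cufflinks, Cuffdiff, HTSeq and DESeq2 on hg19 are named in the submitters' processing notes, which give no versions or roles. Per the file headers, the deposited files are a spike-in table, a gene table and a transcript table. The spike-in table gives the authors' raw count per library for 92 external RNAs. The gene table gives the authors' signal, a group mean of reads over spike-in size factors, and the authors' ratio of the group means. It also gives the log2 of that ratio and the authors' p-value before and after adjustment. The transcript table gives the authors' FPKM, 3 values per group with no replicate number, per the file headers.

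Low group means of the gene table were whole reads divided by spike-in factors in 1327 of 1327 siControl and 2139 of 2139 siChe-1 cases with siChe-1 replicates 1 and 2, and in 0 with any other pair. Whole reads were recovered so for 16322 of 16444 genes (99.3%), all 49 members included. The 122 others, abundant genes, hold 19.6% of normalized siControl reads.

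FPKM were summed by gene, kept at a mean of at least 1, rescaled by the median of ratios and tested as log2(FPKM + 1), which understates changes of low genes, with limma 3.58.1 with a trend. Recovered reads with an authors' mean of at least 10 were tested with edgeR 4.0.16 (quasi-likelihood, TMM). Spike-in calls are the authors' adjusted p at the same minimum. Tests were two-sided, with Benjamini-Hochberg adjustment over all tested genes and a threshold of 0.05. Both tests and the recovery were checked on simulated data, where edgeR's calls held more false ones than the threshold allows. Standard errors for edgeR were taken as the fold change over the root of F.

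Called members and the most abundant one of each role are given with values, as are called and most abundant genes of each pathway group. Members, lists, the minimum FPKM of 1 and the printed promoters were chosen with earlier results of these data known. The range of 10 to 1000 reads was added after the results were seen. Positions are those of the deposited transcript table, whose intervals can span a wider locus (CXCL10 shares its interval with CXCL11). Promoters are from RefSeq. A gene of the pathway list is not reported here.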

Additional observations from a re-analysis of the deposited data

How the results depend on the processing

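No called member or called pathway gene reversed its direction under an alternative run on the same scale (FPKM, reads or spike-ins; of the pathway genes called on FPKM, JAK2 alone was run there). Between scales UBE2L6 and ZBP1 were called higher relative to other genes and lower in the authors' deposited table. Of the members called, 18 of 26 on FPKM and 24 of 29 on reads were called in every setting that tested them, and 1 of 7 against the spike-ins, CXCL10. Of the pathway genes called on reads, 9 of 15 were. A gene under the minimum of a setting was not tested in it. On FPKM, LGALS3BP was tested in 8 other settings and IFIH1 in 12. On reads, TRIM22 was tested in 9 and IFIH1 in 10. On FPKM, a minimum mean of 10 left 13 members and 9 calls (8 higher, 1 lower), since most members are lower than that. With that minimum, 949 of all genes were called higher and 948 lower. The median of the members minus that of all genes was 0.46 on FPKM. It moved to 0.67 with a pseudocount of 0.1, 0.56 with no minimum and 0.56 with the highest transcript in place of the sum. It lay between 0.48 and 0.57 with 1 library left out. The count of called members then lay between 20 and 24, where 738 to 1268 of all genes were called higher and 800 to 1398 lower. ISG15, MX1, OAS2, SP110 and CMPK2 lost their FPKM call with the highest transcript. On reads the median was 0.76 and moved to 0.89 with no minimum, and it lay between 0.70 and 0.82 with 1 library left out. Where siChe-1 keeps 1 library on reads, it is assumed to vary like siControl. FPKM values left out are known by list position. Against the spike-ins, the authors' 7 calls became 16 with edgeR, and edgeR gave 4 to 26 with 1 library left out. Upper quartile scaling moved all genes from 1681 higher and 1908 lower to 2251 and 1416 on reads (members 31 and 2), and from 1444 and 1490 to 1797 and 1208 on FPKM (members 24 and 2). Deposited FPKM scaling gave 1213 and 1591 (members 21 and 2).

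Replicates 1 and 2 of both groups share a number, which the labels do not tie to a batch. Deviations of same-numbered libraries correlated at 0.40 over 9935 genes in both pairs, which with 2 siChe-1 libraries are not separate observations, and siControl replicate 3 correlated at 0.14 with siChe-1 replicate 1. With the replicate block, 32 members were called on reads (30 higher, 2 lower). Against the spike-ins 1 was called (0 higher, 1 lower), with edgeR adjusted p of 0.141 for SAMD9, 0.177 for XAF1 and 0.265 for GBP4. The counts over all genes with the block are not given here, so these member counts cannot be read as particular to the members. With the block, ZBP1 was not called on reads (0.0610).

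The number of reads limits the 7 untested members, which had at most 25 in any library. These values cover counting error and the spread of the libraries only.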
